A study of Mus musculus with 18 samples.

Results

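A set of 7 genes of zinc handling was followed through all libraries of the series, namely the metallothioneins Mt1 and Mt2, the zinc-sensing transcription factor Mtf1, the exporters Slc30a1 and Slc30a10 and the importers Slc39a10 and Slc39a14. They are 7 of 35551 gene IDs in the deposited tables, and they were chosen by their measured signals, since Mt1 and Mt2 differed widely between replicate numbers. Those differences are therefore described without a test. The pemafibrate comparison was not the stated ground for the choice and was tested, although earlier results of these data were known by then. The cells were AML12, a line of non-transformed hepatocytes derived from the liver of a mouse transgenic for human TGFα, whose circadian rhythms had been synchronized, and their poly(A) RNA was sequenced. Cells received pemafibrate (Pema), a drug that activates the nuclear receptor PPARα selectively, for 24 h from T0 to T24, for 6 h from T14 to T20 as a day-like exposure, or for 6 h from T24 to T30 as a night-like exposure. Each Pema group was set against a group given the solvent DMSO over the same window. Every group held 3 libraries, 18 in all, and each replicate number (1, 2 or 3) marked 6 of them. The labels do not say whether a replicate number stands for a separate culture, passage or day, so a p-value measures no more than how these libraries spread, and that spread may be technical.

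Metallothioneins are small, cysteine-rich proteins of the cytosol that bind zinc and copper, and the liver is one of the tissues in which they are most readily induced. Free zinc in the cell is sensed by the zinc finger protein MTF1, which enters the nucleus and binds metal response elements in the promoters of Mt1, Mt2 and Slc30a1. Transporters of the SLC30 family move zinc out of the cytosol, across the plasma membrane or into organelles, and those of the SLC39 family move it into the cytosol. Metallothionein genes also respond to glucocorticoids and to inflammatory cytokines in hepatocytes.

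The promoters of Mt1, Mt2 and Slc30a1 are printed because these are the members that MTF1 is known to drive and that shared a high signal in replicate 2. Each sequence is the RefSeq entry (GRCm38.p6) of 250 bases before to 50 bases after the annotated start of the gene, 5′ to 3′ on the gene's strand, and capitals mark matches to the core of the metal response element. The motifs searched were TGCACNC and TGCGCNC on both strands.
Mt1 (chr8:94178839-94179138, + strand): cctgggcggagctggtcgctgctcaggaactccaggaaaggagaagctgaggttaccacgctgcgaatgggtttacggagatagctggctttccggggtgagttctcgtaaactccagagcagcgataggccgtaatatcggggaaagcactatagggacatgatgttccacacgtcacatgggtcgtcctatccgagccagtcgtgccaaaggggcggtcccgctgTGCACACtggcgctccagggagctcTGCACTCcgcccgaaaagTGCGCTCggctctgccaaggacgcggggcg
Mt2 (chr8:94172368-94172667, + strand): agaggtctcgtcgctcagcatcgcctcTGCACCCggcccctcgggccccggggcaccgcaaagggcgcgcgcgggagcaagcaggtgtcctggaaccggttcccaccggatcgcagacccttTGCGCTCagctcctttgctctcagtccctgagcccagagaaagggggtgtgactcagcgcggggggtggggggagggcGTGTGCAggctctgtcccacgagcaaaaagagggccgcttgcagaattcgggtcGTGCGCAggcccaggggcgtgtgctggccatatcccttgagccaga
Slc30a1 (chr1:191906531-191906830, + strand): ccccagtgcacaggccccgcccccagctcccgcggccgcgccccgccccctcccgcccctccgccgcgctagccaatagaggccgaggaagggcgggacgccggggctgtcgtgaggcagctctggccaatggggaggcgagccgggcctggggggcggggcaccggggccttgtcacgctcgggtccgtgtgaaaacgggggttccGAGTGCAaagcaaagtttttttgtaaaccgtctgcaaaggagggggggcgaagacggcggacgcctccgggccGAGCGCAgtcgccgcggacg
The Mt2 window held 4 matches, of which 3 began before the start of the gene. In the Mt1 window there were 3 matches, beginning at −23, 3 and 21 relative to the annotated start, and in the Slc30a1 window 2, beginning at −43 and 31. Of 32851 promoter windows in the RefSeq table, 25.7% held at least 1 match, 7.11% at least 2, 1.97% at least 3 and 0.517% at least 4. Slc30a10 held 3 matches, 2 of which overlapped on opposite strands, and the windows of Mtf1 and Slc39a10 held 0. The table had entries for 6 of the 7 genes, all but Slc39a14. Mt2 and Mt1 are close neighbours on chromosome 8, next to Mt3 and Mt4. A match describes letters and does not by itself decide whether a site is bound. The start used in these cells may differ from the annotated one, which was not tested.

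Signal totals ran from 31461977 to 33884634 per library, in the authors' normalised units, and read depth before normalisation was not given. Of 10 hepatocyte markers, 9 reached a mean signal of 10, the lowest level tested here, with Alb between 3124 and 7189.9 and Hnf4a between 5476 and 9662. Apoa1, which encodes the main protein of high-density lipoprotein, had a median of 7.63. Of 4 cholangiocyte markers, the keratin genes Krt7 and Krt19 and the transcription factor gene Sox9 were also present, with medians of 4429, 10007 and 4313, while Epcam did not exceed 7.25. Of 5 fibroblast, 4 leukocyte and 4 endothelial markers, 2, 2 and 1 reached that level. The summed signals of these 3 lists ran from 17.2 to 115, from 59.8 to 112 and from 8.91 to 32.4, and the macrophage marker Adgre1 was listed at 0 in every library. Differences between replicate numbers were widespread, making up a median of 78.4% of the within-table variation in log2 signal over 13258 genes. For treatment the median was 6.36%. The replicate number has more levels than treatment and would take a larger share even of random spread.

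The metallothionein signal differed far more between replicate numbers than between treatments. In every table it was highest in replicate 2, intermediate in replicate 3 and lowest in replicate 1. Over T0 to T24 the Mt1 signal in replicates 3, 2 and 1 was 10458, 15479.8 and 7141 in Pema libraries, against 10879.9, 14728 and 7050.0 in DMSO libraries. Over T14 to T20 Mt1 was at 9779, 14583 and 6431 in Pema libraries, against 10245, 14824 and 6796 in DMSO libraries, and over T24 to T30 at 10378, 14455 and 7229 in Pema libraries, against 11608, 17357 and 7150.0 in DMSO libraries. The Pema and DMSO ranges overlapped in each window, whereas no library of one replicate number overlapped with those of another within a table. Averaged over both treatments and the 3 tables, Mt1 was 2.18-fold higher in replicate 2 than in replicate 1 and 1.51-fold higher in replicate 3 than in replicate 1. In such bulk libraries fewer cells with a transcript and less transcript per cell cannot be told apart.

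Mt2 showed the same order, with wider steps from replicate 1 on the log2 scale. Its signal over T0 to T24 was 6819, 9313 and 4029 in Pema libraries, against 6692, 9559 and 3875 in DMSO libraries (replicates 3, 2 and 1). For T14 to T20 the Mt2 values were 6297, 9702 and 3959 in Pema libraries, against 6679.8, 9705 and 3753 in DMSO libraries. For T24 to T30 they were 6295, 9529 and 4147 in Pema libraries, against 7484, 10648 and 4252 in DMSO libraries. Replicate 2 again stood above replicate 3 and replicate 3 above replicate 1 in all tables without overlap, and Pema and DMSO libraries overlapped. Mt2 was 2.43-fold higher in replicate 2 than in replicate 1 and 1.68-fold higher in replicate 3 than in replicate 1. The log2 difference between replicates 2 and 1 varied little between tables, from 1.09 to 1.15 for Mt1 and from 1.26 to 1.33 for Mt2. The replicate number made up 98.5% of the within-table variation in log2 Mt1 signal and 98.9% of that in Mt2, against 0.851% and 0.664% for treatment.

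**Figure D1:**
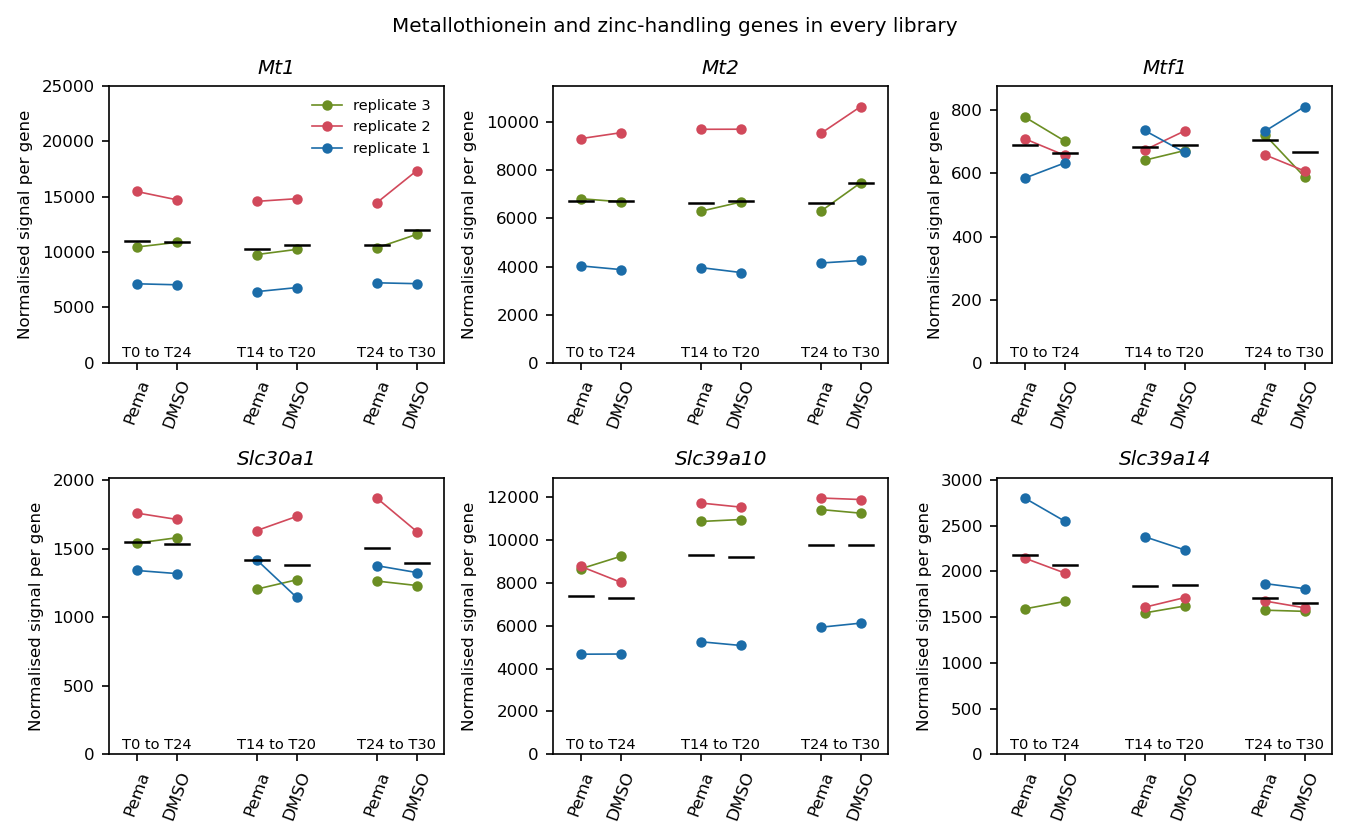
Normalised signal (y axes, linear from 0) of 6 genes in every library, with Pema left of DMSO in each exposure window on the x axis. Points are single libraries, lines join the Pema and DMSO libraries of 1 replicate number, and black bars are means of 3 libraries. For Mt1 and Mt2 replicate 2 lies on top and replicate 1 at the bottom throughout, for Slc39a10 replicate 1 lies below the others, and for Slc39a14 it lies above them.

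Set against all 13258 genes with a mean signal of at least 10, the metallothioneins were variable but not the most variable. The SD of log2 signal between replicate numbers, the kind of value by which they were chosen, was 0.64 for Mt2 and 0.56 for Mt1, which placed them at ranks 289 and 456. Among the 6482 genes with a mean of at least 1000 they held ranks 14 and 25, and Slc39a10 held rank 22. The order of replicate 2 above 3 above 1, apart in every table, was found in 2 of the 6 members above the minimum level, Mt1 and Mt2, and in 1.04% of all genes, while 5.68% of all genes had the replicate numbers apart in some order. A mean difference of at least 2-fold for replicate 2 over replicate 1 was found in 0.935% of genes.

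The metallothioneins did not keep an exactly constant proportion. The ratio of Mt1 signal to Mt2 signal averaged 1.57 ± 0.0499 in replicate 3, 1.56 ± 0.0660 in replicate 2 and 1.74 ± 0.0763 in replicate 1 (SD, n = 6 libraries each, both treatments). Its highest value was 1.65 in replicate 3 and 1.66 in replicate 2, and its lowest in replicate 1 was 1.62, so replicate 1 was highest on average and overlapped with the others at its lower end. The signals are not per length, and the ratio is therefore not a ratio of transcript numbers. Mt3 and Mt4, the other metallothionein genes listed, were at 0 in all 18 libraries.

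Mtf1, which encodes the zinc sensor, did not follow the metallothioneins. Its signal over T0 to T24 was 779, 710.2 and 585 in Pema libraries, against 703, 658 and 633 in DMSO libraries (replicates 3, 2 and 1). Over T14 to T20 it was 642, 674 and 736 in Pema libraries, against 673, 735 and 667 in DMSO libraries, and the T24 to T30 values were 723, 659 and 734 in Pema libraries, against 588, 608 and 812 in DMSO libraries. The replicate numbers overlapped and changed order between tables: on average replicate 3 was highest over T0 to T24, and replicate 1 over T24 to T30. Its mean log2 difference was −0.037 between replicates 2 and 1 and −0.018 between replicates 3 and 1, and its SD between replicate numbers was at percentile 1.66 of all genes. That SD is of means over the tables, where differences of opposite sign cancel. Replicate 3 minus replicate 1 was 0.28, −0.092 and −0.24 in the windows in order of time. Within tables the replicate number made up 64.0% of the Mtf1 variation, beside a median of 78.4% over all genes.

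Of the exporters, Slc30a1, which carries zinc out across the plasma membrane, was higher in replicate 2. Its signal over T0 to T24 was 1540.5, 1759.6 and 1341 in Pema libraries, against 1579.6, 1713 and 1318 in DMSO libraries (replicates 3, 2 and 1), and over T14 to T20 it was 1205, 1632 and 1419 in Pema libraries, against 1273, 1735 and 1144 in DMSO libraries. In the T24 to T30 libraries Slc30a1 was at 1264, 1869.5 and 1376 in Pema libraries, against 1231, 1625 and 1326 in DMSO libraries. Both libraries of replicate 2 exceeded both of replicate 1 in every table, by a mean log2 difference of 0.38 (between 0.37 and 0.40 in the 3 tables), whereas replicate 3 lay above replicate 1 in the T0 to T24 table and below it on average in the other 2. The step was smaller than those of Mt1 and Mt2 in every table. Slc30a10, which is known as a manganese exporter of liver and intestine, was listed at 0 in 17 of 18 libraries and at 1.02 in the DMSO library of replicate 3 over T14 to T20, so it was below the minimum level and was not tested.

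The importers differed in opposite directions between replicate numbers. Slc39a10, a zinc importer of the plasma membrane, had signals over T0 to T24 of 8649.6, 8769 and 4671 in Pema libraries, against 9233, 8029.9 and 4679.9 in DMSO libraries (replicates 3, 2 and 1). The T14 to T20 libraries gave 10861, 11722 and 5252 in Pema libraries, against 10952, 11531 and 5078 in DMSO libraries, and those of T24 to T30 gave 11418, 11956 and 5928 in Pema libraries, against 11248, 11884 and 6121 in DMSO libraries. Replicates 2 and 3 overlapped or lay close to each other and stood apart from replicate 1 in every table, with a mean 1.97-fold difference for replicate 3 and 2.00-fold for replicate 2. Its pattern differed from that of the metallothioneins in that replicate 3 was not intermediate. The replicate number made up 99.6% of its within-table variation and treatment 0.0200%.

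Slc39a14, which imports zinc, iron and manganese into hepatocytes, was highest in replicate 1. Over T0 to T24 it had 1589, 2145 and 2801 in Pema libraries, against 1671, 1982 and 2549 in DMSO libraries (replicates 3, 2 and 1). Its values over T14 to T20 were 1546, 1608 and 2378 in Pema libraries, against 1621, 1713 and 2234 in DMSO libraries, and over T24 to T30 they were 1575, 1676 and 1866 in Pema libraries, against 1563, 1601 and 1810.1 in DMSO libraries. Both libraries of replicate 1 exceeded those of replicates 2 and 3 in every table. The log2 difference of replicate 3 minus replicate 1 in the windows in order of time was −0.71, −0.54 and −0.23. Among the 6 members above the minimum, 5 had replicate 2 apart from replicate 1 in 1 direction in every table, 4 of them above it, where 29.9% of all genes were apart in either direction. Replicate 3 was apart from replicate 1 for 4 members, 3 of them above it, and for 33.0% of all genes. These counts rest on the values that chose the members and carry no test.

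Across both zinc transporter families the size of the differences between replicate numbers was mostly small. Of 24 SLC30 and SLC39 genes, 18 had a mean signal of at least 10, and the other 6 did not exceed 7.81 in any library. The median SD between replicate numbers was 0.091 for these 18 on the log2 scale and 0.14 for all 13258 genes, and Slc39a10 alone of the 18 had a larger SD than Mt1. Both libraries of replicate 2 were above those of replicate 1 in every table for 3 of the 18 and below for 5, where 29.9% of all genes were apart in either direction, and those of replicate 3 were above for 2 and below for 2, where 33.0% of all genes were. Outside the members, Slc30a7, which loads zinc into the secretory pathway, had the largest positive log2 difference of replicate 3 over replicate 1, 0.45 (between 0.16 and 0.61 in the 3 tables). Slc39a2, a zinc importer, had the most negative one, −0.66 (between −0.90 and −0.25 in the 3 tables), at a mean signal of only 10.8. The replicate number made up 36.9% of the within-table variation of Slc30a7 and 65.6% of that of Slc39a2. Slc30a7 was erratic, from 708 to 1839 among the DMSO libraries over T14 to T20. Slc39a4, the importer known from zinc uptake in the gut, was apart in all 3 replicate numbers in the order 1 above 2 above 3, with replicate 3 minus replicate 1 at −0.35.

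**Figure D2:**
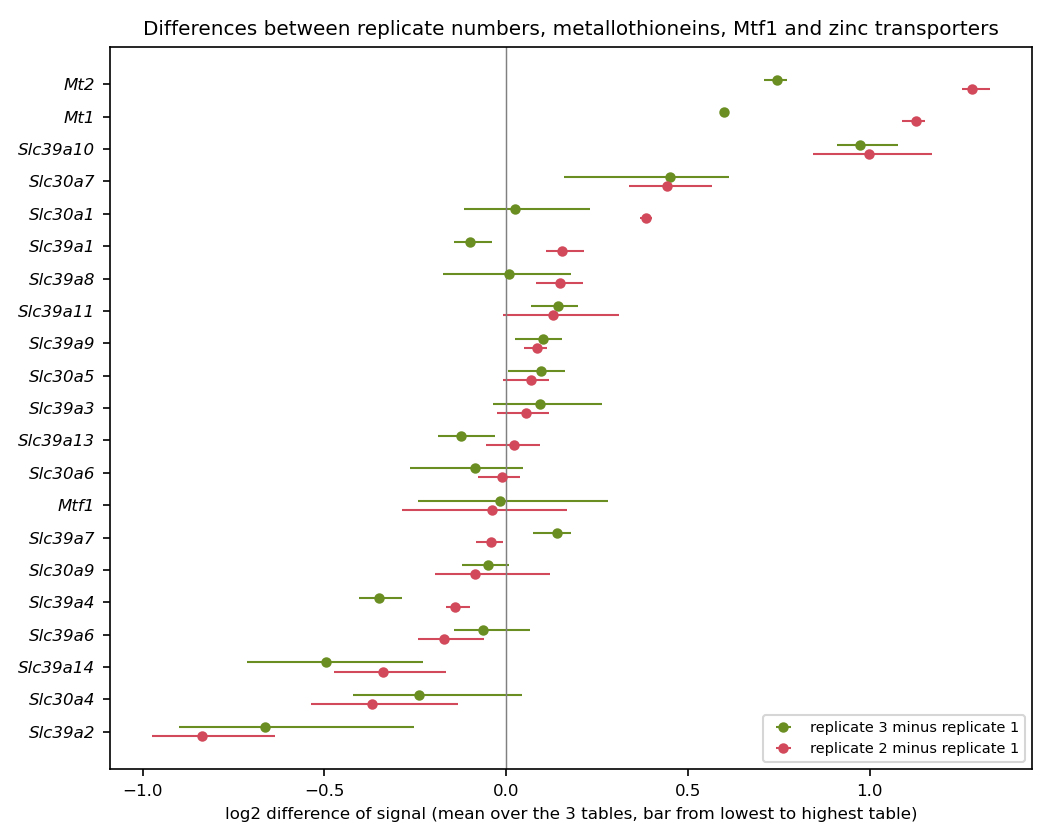
Log2 differences in signal between replicate numbers (x axis) for Mt1, Mt2, Mtf1 and the 18 zinc transporter genes with a mean signal of at least 10 (y axis). Points are means over the 3 tables and bars run from the lowest to the highest table. Mt1, Mt2 and Slc39a10 lie farthest to the right, and replicates 3 and 2 coincide for Slc39a10 but not for the metallothioneins.

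Other metal-handling and stress genes showed mixed patterns. In the iron list of 12 genes, 11 were above the minimum, and both libraries of replicate 2 lay above those of replicate 1 in every table for 5 of them and below for 1, beside 29.9% of all genes apart in either direction. For replicate 3 the counts were 5 and 0, beside 33.0%. Steap3, a metalloreductase of iron uptake, had the metallothionein order of 2 above 3 above 1, with log2 differences of 0.41 in replicate 3 and 0.61 in replicate 2 relative to replicate 1. The ferritin genes Fth1 and Ftl1, which encode the iron storage protein, had replicate 3 minus replicate 1 at 0.46 and 0.67 and replicate 2 minus replicate 1 at 0.51 and 0.62. Of 11 oxidative and heavy metal stress genes, both libraries of replicate 3 were above those of replicate 1 in every table for 5 and below for 1, while for replicate 2 they were above for 1 and below for 3, beside 33.0% and 29.9% of all genes apart in either direction. Hmox1, the inducible haem oxygenase, was higher than in replicate 1 by 0.78 in replicate 3 and 0.68 in replicate 2 on the log2 scale. The heat shock gene Hspa1a went the other way, at −0.71 and −0.36, and the cystine transporter gene Slc7a11 was at 0.54 in replicate 3 and −0.39 in replicate 2. Of 11 genes above the minimum in the glucocorticoid list, both libraries of replicate 3 were below those of replicate 1 in every table for 7. They were above for 1, Nr3c1, which encodes the glucocorticoid receptor itself. For replicate 2 the counts below and above were 4 and 2. Of all genes, the same 33.0% and 29.9% were apart in either direction for replicates 3 and 2. Zbtb16, a glucocorticoid-inducible transcription factor gene, had the order 1 above 2 above 3. Its log2 differences from replicate 1 were −1.61 in replicate 3 and −1.02 in replicate 2. Those of Tat and Cebpd were −0.14 and −0.052 in replicate 3 but 0.52 and 0.29 in replicate 2. Dusp1 had the order 1 above 3 above 2, the reverse of the metallothionein order, at −0.51 in replicate 3 and −1.12 in replicate 2. Genes of this list thus differed in direction in replicate 2, where Mt1 and Mt2 were highest. Copper-handling genes varied less, with a median SD between replicate numbers of 0.091 over 10 genes. Both libraries of replicate 2 were above those of replicate 1 in every table for 2 of them and below for 0. For replicate 3 these counts were 2 and 3. Beside them, 29.9% and 33.0% of all genes were apart in either direction for replicates 2 and 3. Steap3, Fth1, Ftl1, Hmox1, Hspa1a, Slc7a11, Nr3c1, Zbtb16, Tat, Cebpd, Dusp1 and Slc39a4 were singled out after their values were seen. The summed signal of the 10 hepatocyte markers averaged 210042 in replicate 3, 190480.0 in replicate 2 and 213760.0 in replicate 1. That of the 4 leukocyte markers averaged 68.7, 102 and 83.9 in replicates 3, 2 and 1, that of the 5 fibroblast markers 73.5, 60.0 and 32.3, that of the 4 endothelial markers 16.4, 16.9 and 25.8, and that of the 4 cholangiocyte markers 19126, 17832 and 18180.0. The hepatocyte sum is mostly Krt8, Krt18, Trf and Cdh1, with medians of 64650, 51359, 44814 and 22545, and says little of the other markers. In the 3 Pema libraries over T0 to T24, Alb ran from 3405.5 to 6406, Ttr from 1609 to 4097 and Apoe from 208 to 1006. Hnf4a ran from 6357 to 7871, Serpina1a from 3695 to 4553 and Apoa1 from 5.06 to 15.8. The part of other cell types in the replicate differences was not tested.

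Genes with the pattern most like that of the metallothioneins were ranked by the mean of their Pearson correlations with Mt1 and with Mt2 over 18 libraries, after centring within each table. The libraries form clusters by replicate number, so these coefficients describe a shared order of replicates and carry no p. Ddit4, a stress-inducible inhibitor of mTORC1, came first of 13252 genes at 0.99, followed by the transcription factor gene Foxq1 (0.98), the amino acid transporter gene Slc38a6 (0.98), Ms4a4b (0.98) and B2m (0.98), which encodes β2-microglobulin. In replicate 2 over replicate 1 their log2 differences ran from 0.60 for B2m to 1.54 for Ms4a4b, beside 1.13 for Mt1. The most opposite patterns were those of F3, which encodes tissue factor, at −0.98, Filip1l at −0.98 and Ccdc82 at −0.97. Among the members the same measure was 0.89 for Slc39a10, 0.74 for Slc30a1, −0.15 for Mtf1 and −0.65 for Slc39a14, and Mt1 and Mt2 correlated with each other at 0.99.

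Pemafibrate was compared with DMSO within pairs of the same replicate number, which asks whether activation of PPARα altered zinc-handling genes over any window. No member passed the test in any window in limma's paired fit across all genes. Over T0 to T24, 0 of 6 members above the minimum were called, where 0.0525% of 13325 genes were, and 0 members had an unadjusted p under 0.05, as 689 genes in all did. Mt1 averaged 11026 ± 4198 with Pema and 10886 ± 3839 with DMSO (SD, n = 3 each), a log2 fold change of 0.011 ± 0.037 (SE, paired fit) with a 95% interval of −0.077 to 0.099. For Mt2 the fold change was 0.015 ± 0.037, with an interval of −0.071 to 0.10. The SDs within groups carry the replicate differences described above, which the pairs remove: the 9 pairwise log2 differences of Mt1 ran from −0.26 to 0.072. The other 4 members lay between 0.0089 for Slc30a1 and 0.059 for Slc39a14, and the smallest adjusted p among the members was 0.975 in limma.

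Over T14 to T20, 0 of 6 members were called, beside 0.0379% of 13210 genes, and 0 members had an unadjusted p under 0.05, beside 1075 genes in all. Mt1 was lower with Pema in 3 of 3 pairs, at 10264 ± 4098 with Pema and 10622 ± 4027 with DMSO, and its log2 fold change of −0.057 ± 0.028 did not pass (adjusted p = 0.661 in limma). Mt2 had a fold change of −0.0029 ± 0.038. Slc30a1 had the widest spread, with a fold change of 0.047 ± 0.080, since its Pema library of replicate 1 lay above its DMSO partner and those of replicates 2 and 3 below theirs.

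Over T24 to T30, 0 of 6 members were called, beside 0.0378% of 13231 genes, and 2 members had an unadjusted p under 0.05, beside 994 genes in all. These were the metallothioneins. Mt2 averaged 6657 ± 2709 with Pema and 7461 ± 3198 with DMSO and was lower in 3 of 3 pairs, with a log2 fold change of −0.15 ± 0.046 (95% interval −0.26 to −0.039, adjusted p = 0.615 in limma). Mt1 averaged 10687 ± 3623 with Pema and 12038 ± 5117 with DMSO and was lower in 2 of 3 pairs, with a fold change of −0.14 ± 0.053 (95% interval −0.26 to −0.011, adjusted p = 0.661). Without replicate 2 the Mt1 fold change was −0.073, and without replicate 3 that of Mt2 was −0.098, and the Pema and DMSO libraries of replicate 1 were close to each other for both genes. Slc30a1 was higher with Pema in 3 of 3 pairs, at 0.098 ± 0.053 (0.046 without replicate 2), and so was Slc39a14, at 0.041 ± 0.044, and neither passed (adjusted p = 0.710 and 0.828 in limma). Mtf1 had 0.089 ± 0.090 and Slc39a10 −0.0052 ± 0.033.

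**Figure D3:**
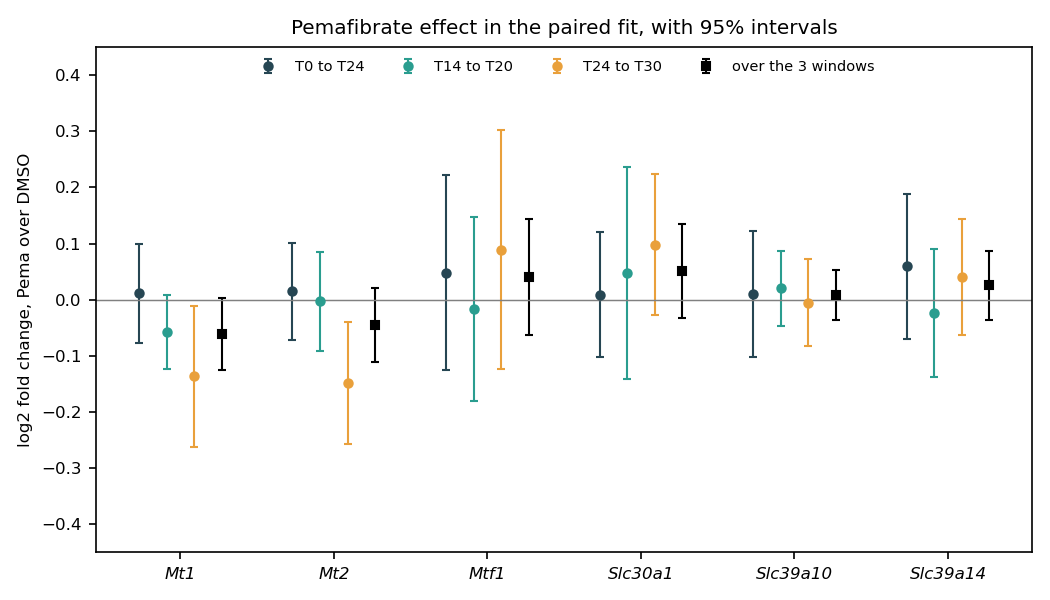
Log2 fold change of Pema over DMSO (y axis) for 6 genes (x axis) in each exposure window and over the 3 windows. Points are estimates of limma's paired fit and bars are 95% intervals, not adjusted for the number of genes. The intervals of Mt1 and Mt2 over T24 to T30 lie below 0, and no gene passed after adjustment over all genes.

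With 1 effect common to the windows and the 9 pairs as blocks, 0 of 6 members were called, where 0.189% of 13258 genes were, and 0 had an unadjusted p under 0.05, beside 855 genes in all. Mt1 was at −0.061 ± 0.030 (95% interval −0.12 to 0.0029) and Mt2 at −0.045 ± 0.031 (−0.11 to 0.021), and each was lower with Pema in 6 of 9 pairs. Both genes shared a sign in 5 of 9 pairs, and both were lower with Pema in 4. Mtf1 was at 0.041 ± 0.048 (−0.063 to 0.14), Slc30a1 at 0.051 ± 0.039 (−0.033 to 0.14), Slc39a10 at 0.0083 ± 0.021 (−0.037 to 0.053) and Slc39a14 at 0.026 ± 0.029 (−0.037 to 0.088). Slc39a10 thus had the narrowest interval, although its signal differed about as much between replicate numbers as that of Mt1.

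**Figure D4:**
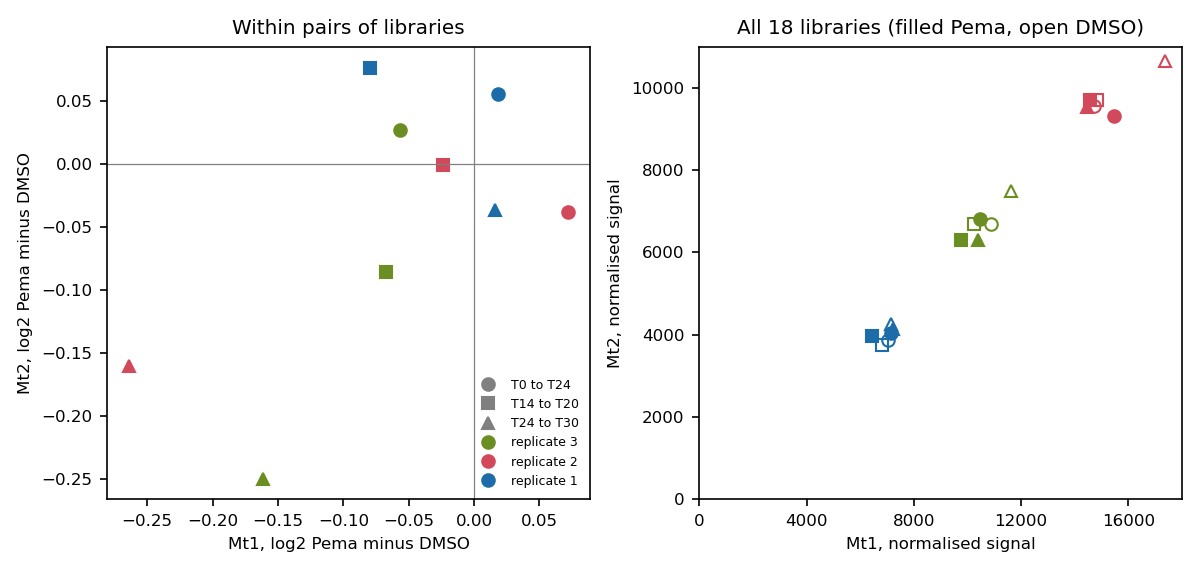
Left, log2 difference of Pema minus DMSO in each of 9 pairs for Mt1 (x axis) and Mt2 (y axis). Right, normalised signal of Mt1 (x axis) and Mt2 (y axis) in all 18 libraries. Colours are replicate numbers, shapes exposure windows, and on the right filled points are Pema and open points DMSO libraries. On the right the libraries form 3 clusters by replicate number, and on the left the pairs of replicates 3 and 2 over T24 to T30 lie lowest.

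Whether the metallothionein response depended on the window was tested on the differences of the effects. Subtracting the Pema effect of the T24 to T30 window from that of T14 to T20 gave 0.15 for Mt2 (95% interval 0.012 to 0.28, adjusted p = 0.509 in limma) and 0.080 for Mt1 (−0.061 to 0.22). Subtracting it from that of T0 to T24 gave 0.16 for Mt2 (0.030 to 0.30, adjusted p = 0.600 in limma) and 0.15 for Mt1 (0.0068 to 0.29, adjusted p = 0.618). The T0 to T24 effect less the T14 to T20 effect was 0.018 for Mt2 (−0.12 to 0.15) and 0.068 for Mt1 (−0.073 to 0.21). Limma called 0 of 6 members and 0% of 13258 genes in each of these 3 differences, and unadjusted p was under 0.05 for 1, 2 and 0 members and for 1225, 1057 and 654 genes in the order given. The hour of exposure is also the time that had passed since the cells were synchronized, and these cannot be told apart. In the differences that involve T0 to T24, the length of exposure also differed, 24 h against 6 h. There it cannot be told apart from the hour either.

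The 6 group means of a gene come from tables that were normalised separately, so their order across windows is a description. For Mt1 the order from high to low was DMSO T24 to T30, Pema T0 to T24, DMSO T0 to T24, Pema T24 to T30, DMSO T14 to T20 and Pema T14 to T20. In that order the lowest Mt1 mean was 10264 ± 4098 and the highest 12038 ± 5117 (SD, n = 3 each). For Mt2 the highest mean was also that of DMSO T24 to T30, 7461 ± 3198, and the other 5 lay between 6652 and 6720.3. Slc39a10 averaged 7363 ± 2332, 9278 ± 3513 and 9767 ± 3335 with Pema in the windows in order of time, and 7314 ± 2359.6, 9187 ± 3570.1 and 9751 ± 3159.8 with DMSO. Slc39a14 had the opposite order of means, at 2178 ± 607, 1844 ± 464 and 1706 ± 148 with Pema and 2067 ± 445, 1856 ± 330.4 and 1658 ± 133 with DMSO. For all 7 members, no pair of neighbours in the order of group means differed by more than the larger of their SDs, but for Mt1, Mt2, Slc39a10 and Slc39a14 these SDs are mostly the spread between replicate numbers. Within a replicate number, the mean Slc39a10 signal of both treatments in order of time was 8941, 10906 and 11333 in replicate 3, 8399.6, 11626 and 11919.7 in replicate 2 and 4675, 5165 and 6025 in replicate 1, higher at each step in all of them. That of Slc39a14 was 1629.9, 1583 and 1569 in replicate 3, 2063, 1660.3 and 1638 in replicate 2 and 2675, 2306 and 1838 in replicate 1, lower at each step. These steps between tables were not tested.

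No gene of the wider zinc lists, which include members, passed the test of pemafibrate. Of the zinc transporters above the minimum, 18, 18 and 17 in the windows in order of time, limma called 0 in each, with 3, 0 and 1 at an unadjusted p under 0.05, beside 689 of 13325, 1075 of 13210 and 994 of 13231 genes in all. Their median log2 fold changes were −0.0089, 0.031 and −0.0052, beside −0.0027, −0.0023 and −0.00082 for all genes. Over the 3 windows the SLC39 importer with the smallest p was Slc39a8, which carries zinc and manganese, at −0.22 ± 0.090 with adjusted p = 0.707 in limma, lower with Pema in 8 of 9 pairs at a mean signal of 65.8 with Pema and 76.6 with DMSO. Next came Slc39a3 at −0.089 ± 0.048. Of the exporters other than Slc30a1, Slc30a6 and Slc30a5 were at 0.032 ± 0.052 and 0.0081 ± 0.026.

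In the copper, iron, glucocorticoid and stress lists limma also called 0 genes in every window and over the 3 windows. Over the 3 windows 10, 11, 11 and 11 of their genes were tested, with 0, 0, 1 and 0 at an unadjusted p under 0.05, beside 855 of all 13258 genes, and with median log2 fold changes of −0.017, −0.0054, 0.0089 and 0.0025, beside −0.0025 for all genes. The genes of smallest p were Commd1 (−0.068 ± 0.044) and Cox17 (−0.028 ± 0.033) among copper genes and Hfe (0.12 ± 0.075) and Tfr2 (−0.077 ± 0.066) among iron genes. Among glucocorticoid-inducible genes they were Errfi1, an inhibitor of the EGF receptor, at 0.041 ± 0.017 (adjusted p = 0.723 in limma, higher with Pema in 8 of 9 pairs), and Dusp1, a MAP kinase phosphatase, at −0.040 ± 0.028. In the stress list they were Nqo1, a quinone reductase with a low signal, at 0.33 ± 0.18, and the heat shock gene Hspa1a at −0.14 ± 0.085.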

How the data were processed

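Per the labels' protocols, AML12 poly(A) RNA went into libraries that keep strand (dUTP) and were read on DNA nanoballs. The authors deposited 1 table per exposure window with normalized signal for 35551 Ensembl gene IDs in 6 libraries, scaled by the authors within each table, with column names that have the ending of salmon output, per the file headers. The sources used here do not give the counter's version, the genome build or the annotation, and depth before scaling is unknown. A gene name table gave symbols for 35181 IDs. Groups and replicate numbers came from the sample titles.

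The fits used log2(value + 1), a scale on which changes of low genes look smaller than they are, keeping genes whose mean signal reached 10 in the libraries fitted. Pema was tested against DMSO with limma 3.58.1 in R 4.3.3 (two-sided, variance trend), with the replicate number as a block and Benjamini-Hochberg adjustment over all genes at a threshold of 0.05. Deviations from group means correlated at 0.31 to 0.62 in each of 9 Pema and DMSO pairs that share a number. They correlated at −0.42 to −0.11 where numbers differed. Deviations cancel within a group, so positive values for shared numbers push the others down, and the second range adds no separate support. The pairing rests on the numbers in the titles together with the first range. The members, gene lists, markers and tests were chosen with earlier results of these data known. The text names all members, up to 2 genes of the smallest p per list in the fit over the windows, the 5 genes most like and 3 most unlike the metallothioneins, and the zinc transporters with the largest difference between replicates 3 and 1 in each direction, and otherwise says where a gene was singled out by its values. The fits were checked on simulated data, with independent normal noise around the real means of the pairs. Such data meet the model by design, so the check bears on the calculation and not on how well the model suits these libraries. Alternatives changed the block, pseudocount, filter, variance trend, scaling and replicates.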

Additional observations from a re-analysis of the deposited data

How the results depend on the processing

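No member passed the test in any fit under any of 11 alternatives (no replicate block, pseudocounts of 0.1 and 5, no filter, a minimum mean of 50, no variance trend, robust estimation, TMM rescaling, and each replicate left out), and the smallest adjusted p of the 462 recomputed member values was 0.128, for Mt1 over T24 to T30 without replicate 1. Of these values 434 kept their sign and 28 changed it, all 28 on leaving out a replicate. The ranges with a replicate left out are given here for the genes whose sign changed. Over T0 to T24 the log2 fold changes ran, for Mt1 −0.019 to 0.045, Mt2 −0.0052 to 0.042, Mtf1 −0.0017 to 0.13, Slc30a1 −0.0058 to 0.031 and Slc39a10 −0.048 to 0.062. Over T14 to T20 they ran, for Mt2 −0.043 to 0.038, Mtf1 −0.096 to 0.038, Slc30a1 −0.084 to 0.12 and Slc39a14 −0.080 to 0.011. Over T24 to T30 the ranges were Mtf1 −0.014 to 0.21 and Slc39a10 −0.019 to 0.015. The genes of that window that kept their sign still moved: Mt1 −0.21 to −0.073 (lowest without replicate 1, nearest 0 without replicate 2), Mt2 −0.20 to −0.098 (without replicates 1 and 3) and Slc30a1 0.046 to 0.13 (without replicates 2 and 3), beside −0.14, −0.15 and 0.098 with all. The ranges over the 3 windows were Mtf1 −0.0022 to 0.080, Slc39a10 −0.014 to 0.027 and Slc39a14 −0.0068 to 0.060. For the T14 to T20 effect less the T24 to T30 effect they were Mt1 −0.00068 to 0.17, Mtf1 −0.30 to 0.024, Slc30a1 −0.20 to 0.069 and Slc39a10 −0.0094 to 0.055. T0 to T24 minus T14 to T20 gave Mt2 −0.029 to 0.046, Mtf1 −0.021 to 0.22, Slc30a1 −0.12 to 0.085 and Slc39a10 −0.067 to 0.026, and T0 to T24 minus T24 to T30 gave Mtf1 −0.078 to 0.013, Slc39a10 −0.036 to 0.081 and Slc39a14 −0.018 to 0.070. The cause was not tested. All 90 recomputed differences between replicate numbers (other pseudocounts, TMM rescaling, Pema or DMSO libraries alone) moved by less than the SD of the 6 matched differences. With Pema or DMSO libraries alone this outcome was fixed by the calculation, since their differences are among the 6 that set the SD. TMM rescaling changed no library by more than 0.0065 on the log2 scale and could hardly move a difference. These checks therefore say little about stability.

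Counts over all genes were less stable. Without the replicate block the counts called were 0, 0 and 0 in the 3 windows and 2 over them, beside 7, 5, 5 and 25 with the pairing. Without the filter or without the variance trend the counts in the windows were also 0, 0 and 0. Over T14 to T20, TMM rescaling gave 2 calls and robust estimation 8. Leaving out a replicate gave 4 to 12 calls over T0 to T24 (12 without replicate 1, 4 without replicate 2), 4 to 7 over T14 to T20 and 1 to 7 over T24 to T30 (1 without replicate 2). It gave 12 to 17 over the 3 windows (14, 12 and 17 without replicates 1, 2 and 3) and 0 to 1 for each difference between windows. Read depth is unknown, so no counting error could be given, and 3 libraries per group limit the size of effect that could be called.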
